A study of Rattus norvegicus with 8 samples.

Results

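The rat miR-344 family comprised 6 of the 758 miRNAs on the array, taken as every miRNA whose array name begins with rno-miR-344: miR-344a-3p, miR-344a-5p, miR-344b-3p, miR-344b-5p (rno-miR-344b-5p on the array), miR-344g and miR-344i. The family was selected on the array values of miR-344b-5p, which had been among the miRNAs called in earlier comparisons with the sham-operated group at 4 h. The values of miR-344b-5p are therefore a description, with no test, and the other members entered by name. RNA came from the medial vestibular nucleus (MVN) of male Sprague–Dawley rats that were 7 weeks old. Rats had unilateral vestibular deafferentation (UVD) or a sham operation (SO), and tissue was taken 4 d or 4 h later, which gave the groups UVD 4 d, UVD 4 h, SO 4 d and SO 4 h. In UVD rats the left labyrinth was opened and destroyed with ethanol, whereas SO rats had the same approach without opening of the labyrinth or ethanol. Every group therefore shared the anesthesia and the ear surgery, and no unoperated animals were included. Each group had 2 arrays, each for a pool of the left MVNs of 3 rats. Errors and p-values therefore describe only the spread between such pools.

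miRNAs are small RNAs that pair with target mRNAs, mainly through the seed, which is bases 2 to 8 of the mature strand, and lower their translation or stability. A mature miRNA is cut from 1 arm of a hairpin precursor, the 5p or the 3p arm. The miR-344 family is known from rodents, where its members have been found in the brain. Their targets in the vestibular nuclei were not measured here.

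The sequences below show how the members are related, with the seed in capitals, since members with the same seed need not have the same array values. They were taken from RefSeq (build GRCr8), in which 5 of the 6 members were matched by name. miR-344a-3p was not matched, and the 3p arm that RefSeq lists at Mir344-1 carries the name miR-344-3p. All 7 loci lie on the minus strand of chromosome 1, with no protein-coding gene and 7 long non-coding RNA genes between them. The next protein-coding genes on one side are Ndn, Magel2, Mkrn3 and Peg12. Of these, at least Ndn, Magel2 and Mkrn3 are known as imprinted genes expressed from the paternal allele.
miR-344b-5p: aGUCAGGCugcugguuauauuc
miR-344g: aGUCAGGCuccuggcaggaguc
miR-344b-3p: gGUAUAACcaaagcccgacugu
miR-344b-1-3p: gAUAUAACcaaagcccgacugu
miR-344a-5p: uCAGGCUCcuggcuagauu
miR-344-3p: uGAUCUAGccaaagccugaccgu
miR-344i: cUCUAGCCagggcuugacugca

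miR-344b-5p and miR-344g had the same seed and the same first 9 bases, and they differed at 6 of 22 positions. Counted from the 5′ end, with the base of miR-344b-5p first, these differences were G10C, U15C, U16A, A17G, U18G and U20G. miR-344g lies at chr1:124754989-124755010. No miRNA outside the family shared the seed of either. The 3p strand of Mir344b-1 is not a separate item on the array and differed from miR-344b-3p by G2A, which lies in the seed and gives it the seed of miR-410-3p. miR-344a-5p shared its seed with miR-484. Neither miR-410-3p nor miR-484 passed the test in any comparison.

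The mature miR-344b-5p is encoded 3 times, at chr1:124028549-124028570 (Mir344b-2), chr1:124035725-124035746 (Mir344b-1) and chr1:124044580-124044601 (Mir344b-3). miR-344b-3p is encoded at Mir344b-2 and Mir344b-3, at chr1:124028508-124028529 and chr1:124044539-124044560, so array signals could not be assigned to a single locus. The hairpins show that miR-344b-5p and miR-344b-3p are the opposite arms of 1 precursor. Both arms are in capitals, and the hairpins of Mir344b-2 and Mir344b-3 are identical.
Mir344b-2: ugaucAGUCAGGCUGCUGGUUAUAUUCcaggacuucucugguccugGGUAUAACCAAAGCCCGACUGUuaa
Mir344b-1: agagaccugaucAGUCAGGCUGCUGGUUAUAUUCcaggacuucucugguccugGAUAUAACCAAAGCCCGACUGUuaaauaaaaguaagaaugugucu

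Each member had 16 spots per array, 8 for each of 2 probes. The scanner software counted a probe as detected where its signal exceeded 3 times its own error. The total gene signal of a miRNA was the sum of its detected probes, and 0.1 was listed where none was detected. This rule matched the files for all 6064 pairs of a miRNA and an array. The arrays detected 378 to 430 miRNAs each. No spot was saturated. Replicate 2 of the UVD group at 4 h had the fewest detected miRNAs and the highest median probe error, 1.64, against 1.04 to 1.25 on the other arrays. All arrays were on 1 slide, on which the UVD arrays filled 1 row and the SO arrays the other, and the timepoints filled separate columns, so slide position and group cannot be told apart. All 14 neuron-enriched miRNAs of the marker list were detected on all 8 arrays.

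miR-344a-3p and miR-344b-3p were detected on all 8 arrays, miR-344g on 4 and miR-344b-5p on 2. miR-344a-5p and miR-344i were detected on none. For comparison, 49.7% of the 758 miRNAs were detected on all arrays and 41.3% on none.

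**Figure D1:**
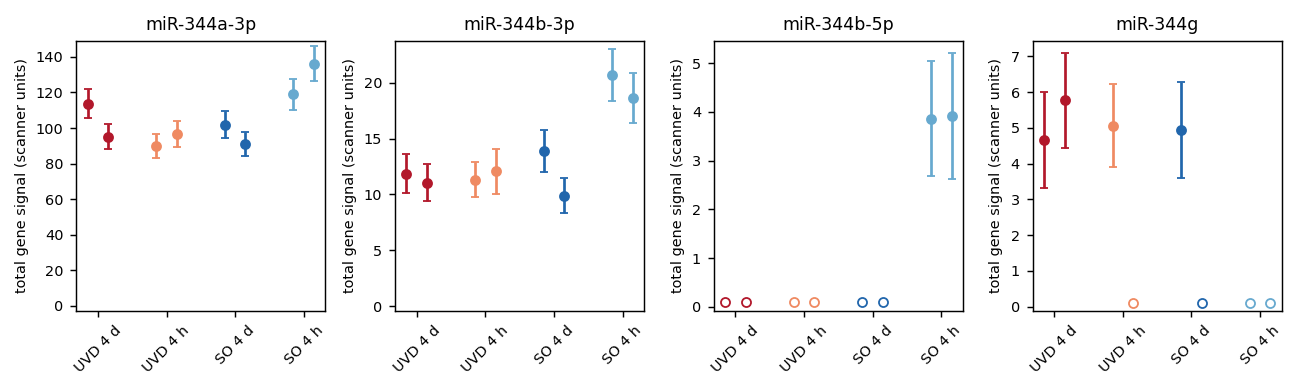
Total gene signal (y axis, linear scanner units) of the 4 members detected on at least 1 array, in the 4 groups, with 1 point per array. Bars are the error the scanner software gives for the signal, and open points mark arrays on which the miRNA was not detected and is listed at 0.1. The SO 4 h arrays have the highest signals of miR-344a-3p, miR-344b-3p and miR-344b-5p, and miR-344g was not detected there.

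miR-344a-3p, the 3p member with every spot well above background, had total gene signals of 114 and 95.01 in UVD 4 d, 89.9 and 96.6 in UVD 4 h, 102 and 90.8 in SO 4 d and 119 and 136 in SO 4 h. Both SO 4 h arrays were higher than the other 6, among which the groups overlapped before normalization. After quantile normalization, the levels were 95.7 ± 1.00 in UVD 4 d, 103 ± 5.30 in UVD 4 h, 101.1 ± 0 in SO 4 d and 126 ± 8.003 in SO 4 h (normalized intensity, mean ± SD, n = 2 arrays each). The SD of 0 arose because both SO 4 d arrays gave this miRNA the same rank, to which quantile normalization gives 1 value.

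For UVD 4 h against SO 4 h, miR-344a-3p had a log2 fold change of -0.28 (SE 0.07, adjusted p = 0.219 by limma). Between SO 4 d and SO 4 h the log2 fold change was -0.31 (SE 0.07, adjusted p = 0.130). Neither passed the threshold of 0.05. The other log2 fold changes were smaller in size, -0.08 for UVD against SO at 4 d (adjusted p = 0.797) and -0.11 for UVD 4 d against UVD 4 h (adjusted p = 0.436). The difference between the time changes of the UVD and SO groups was 0.20 (SE 0.10, adjusted p = 0.503).

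miR-344b-3p, which comes from the same hairpin as miR-344b-5p, had total gene signals of 11.9 and 11.1 in UVD 4 d, 11.3 and 12.1 in UVD 4 h, 13.9 and 9.90 in SO 4 d and 20.7 and 18.6 in SO 4 h. The SO 4 h arrays were again the highest, and the other 6 arrays overlapped between groups. The higher of the SO 4 h values included a second probe. On replicate 1 of SO 4 h the dimmer probe, with a signal of 3.73 and 3.18 times its error, was counted, and it was counted on no other array. The brighter probe alone gave 9.90 to 13.9 on the other 6 arrays, against 17.0 and 18.6 on the SO 4 h arrays. The dimmer probe gave 1.67 to 2.25 on the other 6, against 3.73 and 3.44 on the SO 4 h arrays. Each probe of miR-344b-3p therefore had its 2 highest signals on the SO 4 h arrays, as did each probe of miR-344a-3p. The share of all miRNAs with this order, given below, was counted in normalized levels and not in probe signals.

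After normalization, miR-344b-3p had levels of 10.1 ± 0 in UVD 4 d, 12.3 ± 1.92 in UVD 4 h, 12.2 ± 1.51 in SO 4 d and 20.6 ± 2.71 in SO 4 h (mean ± SD, n = 2). At 4 h its log2 fold change for UVD against SO was -0.74 (SE 0.16, adjusted p = 0.160 by limma), and for SO 4 d against SO 4 h it was -0.75 (SE 0.16, adjusted p = 0.128). Neither difference passed the threshold. With the sum of both probes whether or not they were detected, a setting chosen after seeing the data, the log2 fold changes were -0.65 (adjusted p = 0.0383) and -0.60 (adjusted p = 0.0206), which passed. The values were smaller with normexp on the median spot signal, at -0.14 and -0.16, and with the authors' normalized values, at -0.17 for each. Both scales have a raised floor, on which log2 fold changes of low signals are smaller. Normexp used an offset of 50, and the authors' values of the undetected miR-344a-5p were 37.2 to 38.9. The sizes are therefore not comparable with those of the main fit. Over all alternatives the adjusted p ranged between 0.0383 and 0.424 at 4 h and between 0.0206 and 0.379 for the SO timepoints. For UVD against SO at 4 d the value was -0.27 (adjusted p = 0.759), for UVD 4 d against UVD 4 h it was -0.28 (adjusted p = 0.413), and the difference between the time changes was 0.47 (SE 0.22, adjusted p = 0.502).

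miR-344b-5p, the opposite arm of that hairpin, was listed at a total gene signal of 0.1 on the UVD 4 d, UVD 4 h and SO 4 d arrays and had signals of 3.86 and 3.91 in SO 4 h. It was the 1 miRNA of 758 that was detected on both SO 4 h arrays and on no other array. The same count was 1 for UVD 4 d and 0 for UVD 4 h and for SO 4 d. In both SO 4 h values the brighter probe alone was counted. Its signal was 1.95 and 1.25 in UVD 4 d, 1.96 and 2.13 in UVD 4 h, 2.81 and 2.03 in SO 4 d and 3.86 and 3.91 in SO 4 h. The signals below the detection rule were thus not at 0, and the SO 4 h arrays were the highest. The dimmer probe was counted on no array. Its signals were 0.789 to 1.52 on the other 6 arrays, against 1.30 and 2.74 in SO 4 h, so that here the SO 4 h arrays did overlap the others.

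The distance from the detection rule was small. Among the arrays below the limit of 3, the brighter probe of miR-344b-5p came nearest to it on replicate 1 of SO 4 d, at 2.20 times its error, and in SO 4 h it stood just above the limit, at 3.28 and 3.04. The limit, 3 times the probe error, differed between arrays. It was 3.17 and 4.96 in UVD 4 h, 3.83 and 3.74 in SO 4 d and 3.53 and 3.87 in SO 4 h. On replicate 2 of UVD 4 h the limit was therefore above both signals measured in SO 4 h. Of the 128 spots of miR-344b-5p, 90 were positive and significant over the background by the software and 0 were well above it.

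**Figure D2:**
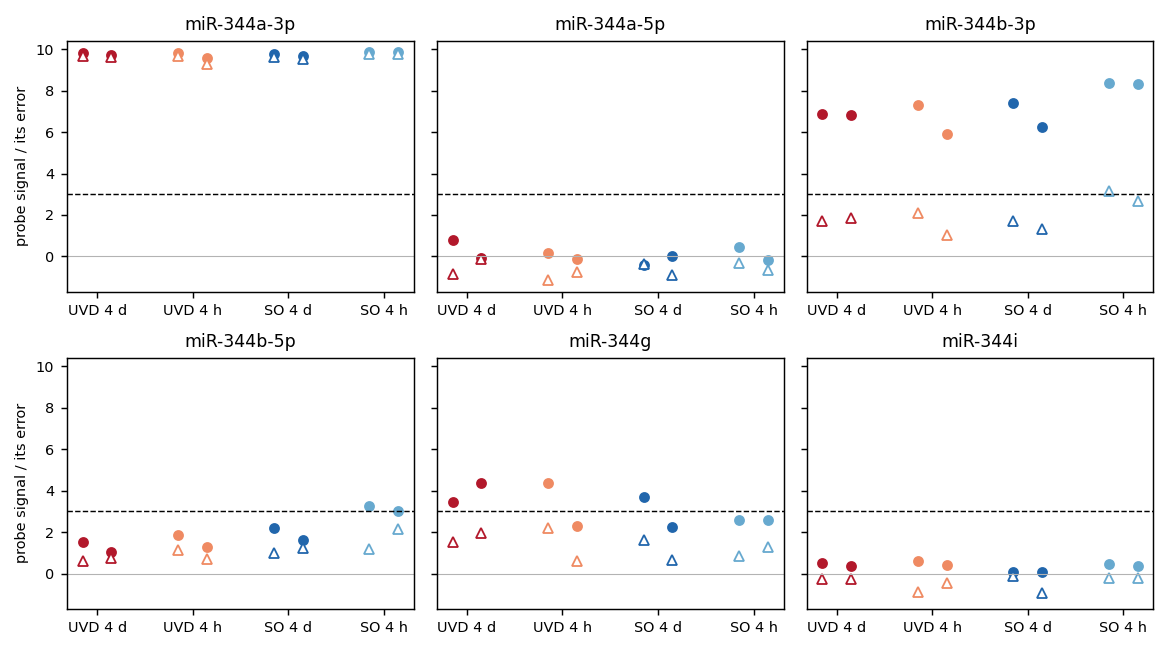
Probe signal divided by its own error (y axis) for the brighter probe (filled circles) and the dimmer probe (open triangles) of each member, with 1 point per array in the 4 groups. The dashed line marks the detection limit of 3, and the brighter probe of miR-344b-5p lies at 2.20 or less in UVD 4 d, UVD 4 h and SO 4 d and at 3.28 and 3.04 in SO 4 h.

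The spots gave the same picture of the brighter probe. The median of its 8 spots was 3.81 and 2.78 in UVD 4 d, 4.03 and 3.62 in UVD 4 h, 4.63 and 3.68 in SO 4 d and 7.38 and 8.10 in SO 4 h, in processed spot signal, which is on another scale than the probe signal. Single spots overlapped between arrays. The highest spot of UVD 4 d was 8.88, and the lowest spots of the SO 4 h arrays were 4.74 and 5.12. Spots of 1 array share its RNA and are not replicates.

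**Figure D3:**
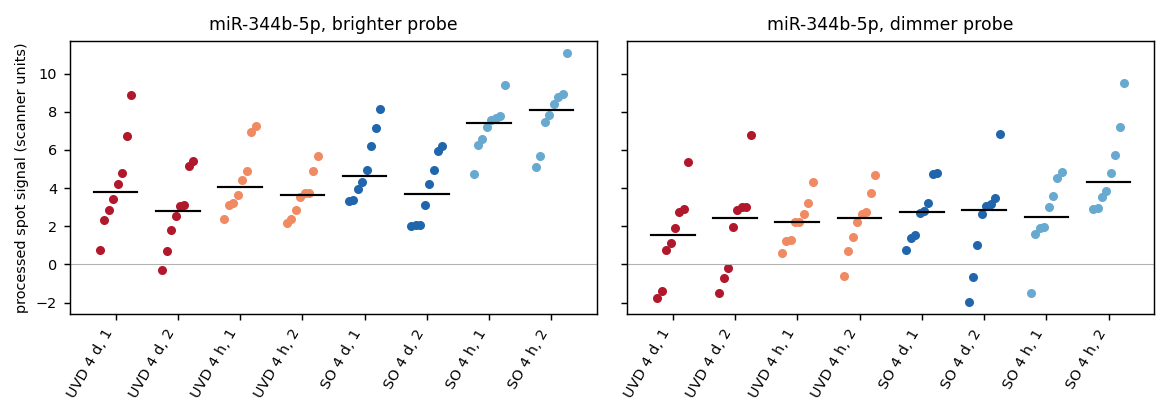
Processed signal of each of the 8 spots (y axis, scanner units) of the brighter and the dimmer probe of miR-344b-5p on the 8 arrays, which are named by group and replicate, with spots ordered by value within an array and a bar at the median. Medians of the brighter probe are 2.78 to 4.63 in UVD 4 d, UVD 4 h and SO 4 d and 7.38 and 8.10 in SO 4 h, while the dimmer probe overlaps between all groups.

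The size of the miR-344b-5p difference depended on what stood for an undetected value. With normalized values under 1 set to 1, the log2 fold change of UVD against SO at 4 h was -1.88, and that of SO 4 d against SO 4 h was the same because both other groups lay at this floor. At 4 h it was -5.21 with a floor of 0.1, -0.88 with a floor of 2, -0.90 with the sum of both probes, -0.10 with the authors' normalized values and -0.04 with normexp background correction. The authors' and normexp scales have the raised floor described for miR-344b-3p. The sign was the same in each setting, but this is no support, since the family was selected on these values. With any of the floors the sign could not differ, because no UVD 4 h array detected miR-344b-5p. The probe limits of 3.83 and 3.74 in SO 4 d were close to the signals of 3.86 and 3.91 in SO 4 h, so no least fold is given. For UVD against SO at 4 d the log2 fold change was 0, because both groups lay at the floor. With the sum of both probes it was -0.87. Before normalization these sums were 2.74 and 2.15 in UVD 4 d, against 4.07 and 3.55 in SO 4 d. They were 3.16 and 3.31 in UVD 4 h and 5.16 and 6.65 in SO 4 h. For UVD 4 d against UVD 4 h the alternatives ranged between -0.65 and 0. The 0 at the floor therefore does not show that these groups were alike. Fewer cells that contain the miRNA and less of it per cell cannot be told apart in such pools.

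miR-344g, which has the seed of miR-344b-5p, had another pattern. Its total gene signals were 4.66 and 5.77 in UVD 4 d, 5.06 and 0.1 in UVD 4 h, 4.93 and 0.1 in SO 4 d and 0.1 on both SO 4 h arrays. The undetected arrays again had signal. The brighter probe gave 4.66 and 5.77 in UVD 4 d, 5.06 and 3.87 in UVD 4 h, 4.93 and 2.84 in SO 4 d and 2.97 and 3.31 in SO 4 h. Replicate 2 of SO 4 d had the lowest signal with both probes, below the SO 4 h arrays, and the other SO 4 d array was above them. On replicate 2 of UVD 4 h the signal of 3.87 was below a limit of 5.06, and 4 other arrays had limits between 3.46 and 3.81, which it would have exceeded.

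The normalized level of miR-344g was 4.02 ± 0.77 in UVD 4 d (mean ± SD, n = 2), and 1 of the 2 arrays was at the floor in UVD 4 h and in SO 4 d. Because UVD 4 d was the 1 group with both arrays detected, the fold changes of miR-344g are given as a description, with no test. The log2 fold change of UVD against SO was 1.08 at 4 h and 0.93 at 4 d, with an SE of 0.95. It was 0.91 for UVD 4 d against UVD 4 h and 1.06 for SO 4 d against SO 4 h, also with an SE of 0.95. Single arrays decided each of these values. At 4 h it was 0 without replicate 1 of UVD 4 h and 2.35 without replicate 2, and at 4 d it was 1.96 without replicate 1 of SO 4 d and -0.12 without replicate 2. Between the UVD timepoints it was 1.96 without replicate 1 of UVD 4 h and -0.17 without replicate 2, and between the SO timepoints 0 without replicate 1 of SO 4 d and 2.13 without replicate 2. The detection pattern of miR-344g was shared by 4 miRNAs outside the family, miR-351-3p, miR-6324, miR-6332 and miR-667-5p.

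miR-344a-5p and miR-344i gave no probe signal above its error on any array. The brighter probe of miR-344a-5p lay between -0.53 and 0.986, and that of miR-344i between 0.0676 and 0.704. Their dimmer probes were below 0 on all 8 arrays. Of 128 spots each, 11 of miR-344a-5p and 18 of miR-344i were positive and significant. These members had no measurable level at this signal over background, which does not show that they were absent.

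The filter for the fit was detection on both arrays of at least 1 group. miR-344a-3p and miR-344b-3p passed it in all 4 groups, whereas miR-344b-5p passed through SO 4 h alone and miR-344g through UVD 4 d alone, so no test is read for these 2. Over all 422 tested miRNAs, limma called 0.474% at an adjusted p under 0.05 for UVD against SO at 4 h and 1.66% for SO 4 d against SO 4 h. For UVD against SO at 4 d, UVD against SO averaged over both timepoints and UVD 4 d against UVD 4 h, 0 miRNAs were called, although 3.79%, 13% and 15.4% had an unadjusted p under 0.05. The difference between the time changes was called for 0.237%. Neither miR-344a-3p nor miR-344b-3p was called in any of the 6 comparisons. Averaged over both timepoints, the log2 fold change of UVD against SO was -0.18 for miR-344a-3p (adjusted p = 0.346) and -0.50 for miR-344b-3p (adjusted p = 0.244).

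Both SO 4 h arrays were above the other 6 after normalization for miR-344a-3p and miR-344b-3p, which also held for 18.2% of the 422 tested miRNAs. For miR-344b-5p the same order is a description only. The family was selected on its values, and it passed the filter through SO 4 h alone. In the authors' normalized values, miR-344a-3p, miR-344b-3p and the selected miR-344b-5p had their 2 highest values on the SO 4 h arrays. The share of all miRNAs with this order was not counted in the authors' values. In those values, miR-344a-3p was at 123 to 135 on the other 6 arrays, against 153 and 155 in SO 4 h. miR-344b-3p was at 49.1 to 51.4 on the other 6, against 56.3 and 58.5 in SO 4 h, and miR-344b-5p at 40.6 to 42.4 on the other 6, against 44.5 and 45.1 in SO 4 h. The normalized levels of miR-344a-3p and miR-344b-3p did not overlap in any of the 4 comparisons of 2 groups. The same held for 50.9% of tested miRNAs between UVD 4 h and SO 4 h, for 29.4% between UVD 4 d and SO 4 d, for 44.3% between UVD 4 d and UVD 4 h and for 54.3% between SO 4 d and SO 4 h.

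**Figure D4:**
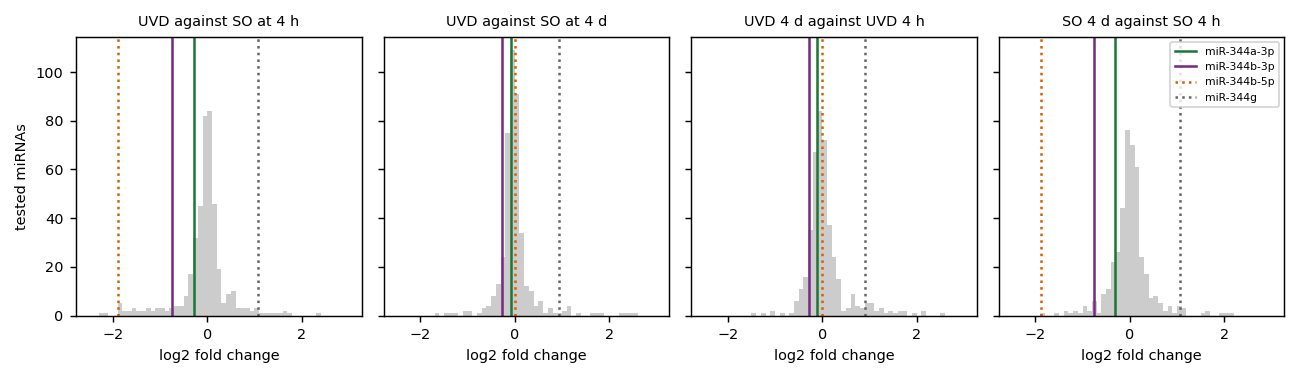
Log2 fold changes (x axis) of the 422 tested miRNAs as histograms (y axis, number of miRNAs) in 4 comparisons, with lines at the 4 members that passed the detection filter. Values of miR-344b-5p and miR-344g (no test), drawn as dotted lines, depend on the floor for undetected arrays, and miR-344b-3p lies at -0.74 for UVD against SO at 4 h and at -0.75 for SO 4 d against SO 4 h.

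Across the 8 arrays, the miRNA whose log2 level followed miR-344a-3p most closely among 376 miRNAs detected on all arrays was miR-344b-3p, and the reverse held too (Pearson's r = 0.983, Spearman's rho = 0.988). Next came miR-298-5p (r = 0.981) and miR-137-3p (r = 0.949) for miR-344a-3p, and miR-298-5p (r = 0.977) and miR-541-5p (r = 0.966) for miR-344b-3p. These coefficients describe 8 arrays that share their normalization, and the SO 4 h arrays stand apart from the other 6. Without them, r between the 3p members was 0.885 over 6 arrays (rho = 0.971). Whether they remained closest to each other without SO 4 h was not computed, because r with other miRNAs was not taken over these 6 arrays. RefSeq's miR-344-3p and miR-344b-3p share a run of 8 bases. Whether their probes detect each other's target was not tested.

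**Figure D5:**
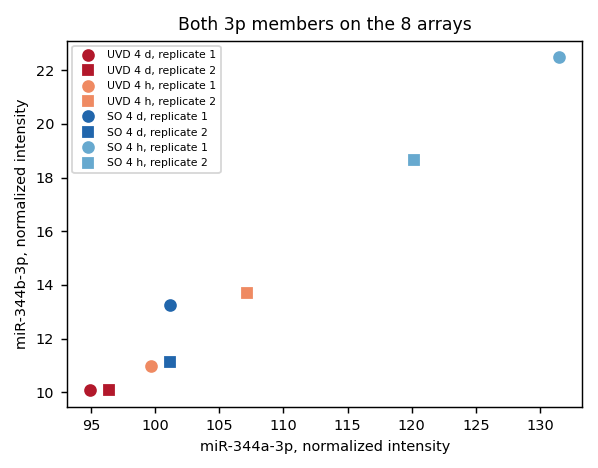
Normalized intensity of miR-344b-3p (y axis) against miR-344a-3p (x axis), both linear and not starting at 0, with 1 point per array colored by group and shaped by replicate. Both SO 4 h arrays lie at the upper right, at 120 and 131 for miR-344a-3p and 18.6 and 22.5 for miR-344b-3p.

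Other tissues near the MVN can contribute RNA to a dissected pool. The summed level of 8 choroid plexus and ciliated ependyma miRNAs was 7424 and 9212 in UVD 4 d, 5958 and 6094 in UVD 4 h, 6155 and 6479 in SO 4 d and 5228 and 5420 in SO 4 h, and 7 of the 8 were detected on all arrays. This sum was thus lowest in SO 4 h, where the 3p members were highest. Of the 8, limma called 1, higher, for SO 4 d against SO 4 h and 0 in the other comparisons. The summed level of 14 neuron-enriched miRNAs ranged between 71731 and 79210 over all arrays, and the SO 4 h arrays, at 73336 and 77308, lay within the range of the others. Such a sum gives most weight to the most abundant miRNAs. Among these 14, limma called 0 for UVD against SO at 4 h and 2, both lower, for SO 4 d against SO 4 h. Means were higher for 5 and lower for 8 in UVD 4 h than in SO 4 h. In SO 4 d they were higher for 5 and lower for 9 than in SO 4 h. Over all 422 tested miRNAs, limma called 1.42% lower and 0.237% higher for SO 4 d against SO 4 h. Means over the 422 were lower for 51.7% in UVD 4 h and for 47.6% in SO 4 d than in SO 4 h. The 14 neuron-enriched miRNAs include miR-137-3p, at 1030 and 1046 in SO 4 h and 473 to 614 on the other 6 arrays. It is named because its level followed that of miR-344a-3p over these same arrays, so it does not stand for the list. The sum of 6 microglia and leukocyte miRNAs, all detected on all 8 arrays, was 3492 to 4207 on the other 6 arrays and 3192 and 3214 in SO 4 h. The sum of 4 muscle miRNAs was 1771 and 2356 in UVD 4 d, 2127 and 2145 in UVD 4 h, 2022 and 2380 in SO 4 d and 1599 and 2001 in SO 4 h. It was thus lower in SO 4 h than in UVD 4 h and SO 4 d and overlapped UVD 4 d, and all 4 muscle miRNAs had higher means in UVD 4 h than in SO 4 h (median log2 fold change 0.52) and in SO 4 d than in SO 4 h (0.63). The sums of 4 oligodendrocyte and of 4 blood miRNAs in SO 4 h lay within the range of the other arrays. No muscle, oligodendrocyte or blood miRNA of these lists was called in any comparison. The part of these tissues in the family's values was not tested.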

How the data were processed

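Agilent rat miRNA arrays were read by the authors with Agilent Feature Extraction 10.7.3.1, per the file headers. The deposited scanner intensity values are background-subtracted signals of spots, probes and miRNAs, with detection flags. The authors also deposited normalized intensity values on a linear scale, quantile normalized. Which signal they normalized is not given in the sources used here.

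Total gene signals of 758 miRNAs on 8 arrays were quantile normalized, values under 1 were set to 1, and log2 was taken. A miRNA was tested if both arrays of any group detected it, which left 422. Means of the 4 groups were fitted in R 4.3.3 with limma 3.58.1 (lmFit, eBayes), and p-values were adjusted over all 422 by Benjamini-Hochberg at a threshold of 0.05. The number of arrays limits the precision. Named miRNAs were all family members, those sharing a seed, the 3 closest to each member detected on all arrays by Pearson's r, and those with the same partial detection pattern. Members and lists were chosen with earlier results of these data known. Marker lists for oligodendrocytes, muscle and blood were also computed. Alternatives were other scalings, signals, floors, filters and variance models, a replicate block, and leaving out each array. Normexp was run with an offset of 50.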

Additional observations from a re-analysis of the deposited data

How the results depend on the processing

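The calls over all tested miRNAs depended on the processing. For UVD against SO at 4 h, where 2 miRNAs were called, either scaling to the 75th percentile, no scaling and a floor of 2 gave 1, normexp on the median spot signal 5, eBayes with an intensity trend 8, the sum of both probes 9, the methods' t-test 0 after adjustment, and leaving out 1 array between 1 and 10. For UVD against SO at 4 d, where 0 were called, each scaling, no scaling and floors of 2 and 0.1 gave 1, no filter 2, and leaving out 1 array between 0 and 1. Averaged over both timepoints, where 0 were called, each scaling, no scaling, normexp, a floor of 0.1 and no filter gave 2, and leaving out 1 array between 0 and 7. For UVD 4 d against UVD 4 h, where 0 were called, each scaling, no scaling and floors of 2 and 0.1 gave 1, no filter 2, and leaving out 1 array between 0 and 11. For SO 4 d against SO 4 h, where 7 were called, each scaling and no scaling gave 1, normexp 12, the authors' normalized values 19, a floor of 0.1 gave 3, no filter 2, the sum of both probes 11, the methods' t-test 0, and leaving out 1 array between 1 and 12. For the difference between the time changes, where 1 was called, each scaling, no scaling and a floor of 2 gave 2, normexp, the authors' values, the trend and the sum of both probes 0, a floor of 0.1 and no filter 3, and leaving out 1 array between 0 and 7. The cause was not tested. A group left with 1 array was assumed to vary like the others.

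With the replicate number as a replicate block, 2 miRNAs were called between the SO timepoints and no other count moved. For each miRNA, the difference between the replicates was taken within each group, in the order of their numbers. Correlations of these differences between groups ranged between -0.25 and 0.19, over 0.1 in 2 of 6 pairs of groups. The replicate numbers were therefore not taken as pairing the samples.

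Among the members, miR-344a-3p turned to 0.11 for UVD against SO at 4 d and to 0.16 for UVD 4 d against UVD 4 h without scaling, where the median of all miRNAs shifted by 0.16 and 0.26. miR-344a-3p passed for the SO timepoints with the authors' values (-0.26, adjusted p = 0.0310 by limma), and its value at 4 h was -0.12 with normexp and -0.45 without scaling. miR-344b-3p kept its sign in all alternatives, but its size moved. At 4 h its value was -0.14 with normexp, -0.17 with the authors' values and -0.48 with scaling to the 75th percentile over all miRNAs. The normexp and authors' scales have a raised floor, so their sizes are not comparable with the main fit. For UVD against SO at 4 d it ranged between -0.41 and -0.02 over all alternatives, and was -0.15 without replicate 1 and -0.41 without replicate 2 of SO 4 d. For UVD 4 d against UVD 4 h it ranged between -0.44 and -0.03, and was -0.44 without replicate 1 and -0.12 without replicate 2 of UVD 4 h. miR-344g turned for UVD against SO at 4 d with normexp (-0.0013) and without replicate 2 of SO 4 d (-0.12). For UVD 4 d against UVD 4 h it turned with the authors' values (-0.032), the sum of both probes (-0.030) and without replicate 2 of UVD 4 h (-0.17). For the difference between the time changes it turned without scaling (0.054), without replicate 1 of UVD 4 d (0.047), without replicate 1 of UVD 4 h (0.91) and without replicate 1 of SO 4 d (0.89). Leaving out 1 array, miR-344g ranged between 0 and 2.35 for UVD against SO at 4 h, between 0 and 2.13 for SO 4 d against SO 4 h, between 0.45 and 1.69 averaged over both timepoints, between -0.12 and 1.96 for UVD against SO at 4 d, between -0.17 and 1.96 for UVD 4 d against UVD 4 h and between -1.33 and 0.91 for the difference between the time changes. Signals of miR-344b-5p and miR-344g near the detection limit set what these arrays can show for them.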
